A study of Mus musculus with 12 samples.

Results

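The genes described here are 36 markers of macrophages and other myeloid cells, out of 55304 gene rows in the expression table, and they were found by their gene symbols from a list that holds no MHC genes. They were measured by RNA-seq in 12 libraries of corticotrophs, the pituitary cells that make ACTH from its precursor gene Pomc. The cells came from the anterior pituitary of male Pomc-eGFP mice, in which the Pomc promoter drives a green fluorescent protein. The paper used 8-week-old mice on a C57Bl6/J background in a protocol of 8 weeks, so they were older at collection. Every animal, controls included, carried the transgene. Live single cells were sorted with gates set on wild-type pituitaries to leave out cells without the protein. Control mice (group A) drank standard water throughout. The other mice were given dexamethasone (DEX), a synthetic glucocorticoid, at 2.5 µg/ml in the drinking water for 4 weeks. Their collection was at the end of treatment (DEX, group B), or 1 week (1 wk recovery, group C, day 7) or 4 weeks (4 wk recovery, group D, day 28) after it. DEX was started at different times, so that all groups, controls included, were collected together at the end of the protocol. Each group had 3 pools, and each pool held the cells of 2 to 3 pituitaries. The comparisons ask how the corticotroph transcriptome differs under DEX and whether differences remain after withdrawal.

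Between 7719894 and 12848078 reads fell on genes in each library. The values are normalised counts, that is CPM on a library size corrected for composition, and 1 read was worth 0.0787 to 0.127 of them. Pomc was at 34600 to 74300 normalised counts in control pools, 4240 to 8520 in DEX pools, 43600 to 285000 in 1 wk recovery pools and 48200 to 80200 in 4 wk recovery pools. The growth hormone gene Gh, a marker of somatotrophs, was at 67600 to 266000 in the same libraries, so the sorted material held RNA of another pituitary cell type in every pool. Pool 2 of 1 wk recovery had the lowest library size correction, 0.702, and a column sum of 1423897.2.

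Macrophages live in nearly all organs, the pituitary included, where they clear dying cells and debris, present antigen and release cytokines. They depend on signals through the receptor Csf1r, and the transcription factor Spi1 (PU.1) switches on many of their genes. Glucocorticoids act on myeloid cells as they do on corticotrophs, through the glucocorticoid receptor, and are known to dampen inflammatory genes while raising some scavenger receptors.

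Promoters were compared because the members share a lineage and because PU.1 is itself a member. RefSeq (GRCm38.p6) gave a window of 250 bases before to 50 bases after the start of transcription for 28 of the 36 members, with 32 windows in all, since some genes have more than 1 start. The core of a PU.1 site, GAGGAA on either strand, was present in 18 of the 32 windows (56.2%) and in 9289 of 32851 windows of all genes (28.3%). The glucocorticoid response element, searched on both strands as GNACA and TGTNC with 3 bases between them, was present in 0 of the 32 windows and in 156 of all windows (0.475%). A match is a description of the letters, not of binding. The 150 bases before the start are shown for a complement gene and an Fc receptor with 1 core each, for Lyz2, the member with the highest level per length and with no core, and for Csf2ra, which was lower than in controls at both recovery times while most members were higher, and which has 2 cores next to each other. They are written 5′ to 3′ on the strand of the gene, with the core, or its reverse complement TTCCTC, in capitals.
C1qb (chr4:136886201-136886350, minus strand): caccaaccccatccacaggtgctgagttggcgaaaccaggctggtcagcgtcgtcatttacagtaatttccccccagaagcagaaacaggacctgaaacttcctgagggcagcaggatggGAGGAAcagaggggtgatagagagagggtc
Fcgr3 (chr1:171059404-171059553, minus strand): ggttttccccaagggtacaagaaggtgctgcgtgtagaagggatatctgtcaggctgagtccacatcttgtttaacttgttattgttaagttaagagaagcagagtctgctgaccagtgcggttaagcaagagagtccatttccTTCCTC
Lyz2 (chr10:117282273-117282422, minus strand): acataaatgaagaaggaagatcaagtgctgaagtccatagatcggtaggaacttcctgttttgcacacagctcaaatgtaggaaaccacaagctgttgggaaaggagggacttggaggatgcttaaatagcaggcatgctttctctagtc
Csf2ra (chr19:61228419-61228568, minus strand): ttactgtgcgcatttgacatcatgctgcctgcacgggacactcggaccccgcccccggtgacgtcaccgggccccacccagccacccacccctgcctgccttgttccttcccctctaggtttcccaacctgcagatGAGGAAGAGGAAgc

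Reads of the 36 genes were few, between 608 and 1888 in a library. They made up 0.0073% of reads on genes in DEX pool 3 (95% exact Clopper-Pearson interval 0.00674 to 0.00791) and 0.017% in pool 2 of 4 wk recovery (0.0162 to 0.0178), which were the lowest and the highest of the 12 libraries; these intervals cover counting error only. Of the 36 genes, 16 had over 3 reads in all 12 libraries, 11 had 0 reads in at least 1 library, and Pf4, a chemokine of platelets and some macrophages, never had more than 3. Pf4 was below the filter for testing, which left 35 genes. The defining macrophage genes Csf1r, C1qa, C1qb, C1qc, Cd68, Cx3cr1, Lyz2 and Tyrobp were among the 16, whereas Adgre1 (F4/80) had over 3 reads in 11 libraries and Spi1 in 5. Normalised counts per kilobase of exon were highest for Lyz2 (13), Csf2ra (6.40), Ctss (5.54), C1qb (5.23) and Tyrobp (4.09), as means over the 12 libraries.

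The summed level of the 36 genes was 90.1, 78.2 and 113 normalised counts in control pools 1 to 3, 60.6, 78.0 and 68.2 in DEX pools, 102, 157 and 120 in 1 wk recovery pools, and 89.4, 180 and 170 in 4 wk recovery pools. All DEX pools were below all control pools, and 1 wk recovery pools were above all DEX pools. The first separation was slight, 78.0 in DEX pool 2 against 78.2 in control pool 2. As a share of reads on genes it was absent, with 0.00913% in DEX pool 2 and 0.0086% in control pool 2. Without Csf2ra it was absent too, with 54.6 in DEX pool 3 and 52.4 in control pool 2. The group means were 93.8 ± 17.7 (SD, n = 3) in controls, 68.9 ± 8.72 under DEX, 126 ± 28.0 at 1 wk and 146 ± 49.7 at 4 wk. Pool 1 of 4 wk recovery lay inside the control range. Csf2ra alone made up 29.1% to 34.0% of the sum in control pools and 3.96% to 24.2% in 4 wk recovery pools. Without it, the sums were 52.4 to 80.1 in controls, 40.2 to 54.6 under DEX, 88.0 to 150 at 1 wk and 67.8 to 173 at 4 wk. In such bulk samples, fewer cells of a type and less RNA in each cell cannot be told apart.

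**Figure D1:**
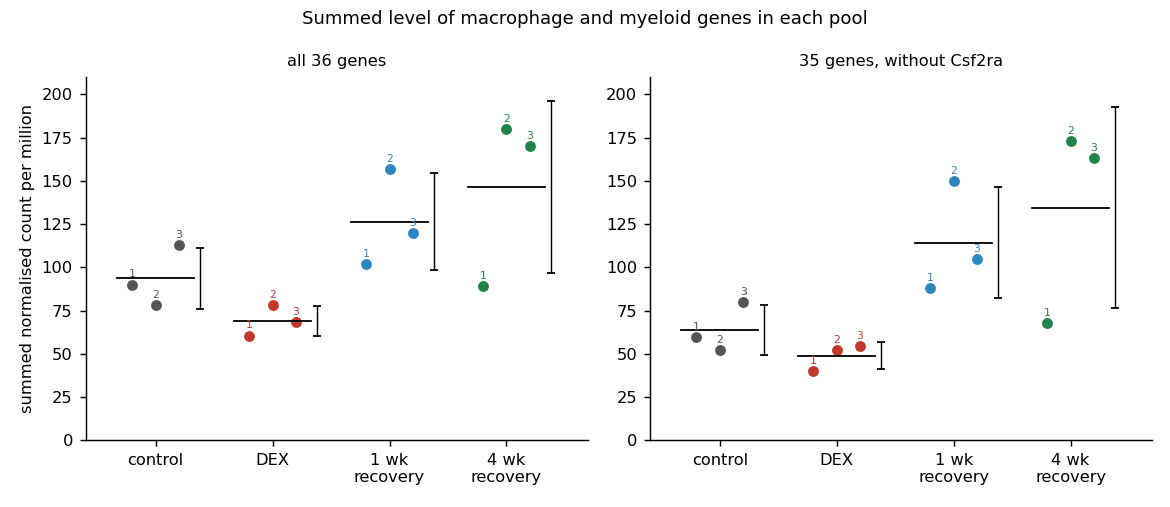
Summed normalised count (CPM) of all 36 genes (left) and of 35 genes without Csf2ra (right) in each pool, with the pool number beside each point, a line at the group mean and a bar of ± 1 SD (n = 3). Without Csf2ra, every 1 wk recovery pool lies above every control and DEX pool, and 4 wk recovery pool 1, at 67.8, lies far below the other 4 wk pools at 173 and 163.

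The complement genes had their lowest group means under DEX and higher means after withdrawal, though none passed the limma threshold. C1qa, C1qb and C1qc encode the chains of C1q, the recognition molecule of the classical complement pathway, which tissue macrophages make. C1qb had 4.17, 2.94 and 4.46 normalised counts in control pools, 0.994, 3.27 and 2.58 in DEX pools, 4.37, 13.1 and 5.34 in 1 wk pools and 2.40, 11.9 and 12.6 in 4 wk pools. DEX pool 1 was the lowest of all 12, and the high values were those of 1 wk pool 2 and 4 wk pools 2 and 3. Its log2 fold change was -0.86 ± 0.63 (SE) for DEX against control, 1.68 ± 0.63 for 1 wk against DEX and 1.76 ± 0.63 for 4 wk against DEX. C1qc ran from 1.65 to 6.09 in controls, 0.745 to 1.79 under DEX, 4.85 to 9.18 at 1 wk and 2.68 to 9.19 at 4 wk. For C1qc, both recovery groups lay wholly above the DEX pools, with log2 fold changes of 2.39 ± 0.586 (limma adjusted p = 0.0861) and 2.23 ± 0.586 (limma adjusted p = 0.0961). C1qc is singled out after its values were seen, as the member with the smallest adjusted p in 1 wk against DEX. C1qa ran from 0.736 to 1.46 under DEX and from 1.57 to 2.83 in controls, with no overlap.

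The growth factor receptors did not move together. Csf1r, the receptor that keeps macrophages alive, had 10.7, 9.42 and 8.70 normalised counts in control pools, 9.36, 11.1 and 12.4 in DEX pools, 10.6, 24.3 and 9.34 in 1 wk pools, and 9.52, 21.6 and 18.0 in 4 wk pools. DEX pools were thus inside or above the control range, with a log2 fold change of 0.19 ± 0.383. Csf1r is named for its role and after its values were seen. Csf2ra encodes the ligand-binding chain of the receptor for granulocyte-macrophage colony-stimulating factor and lies at chr19:61223957-61228429 on the minus strand of GRCm38. It had 30.6, 25.8 and 32.8 normalised counts in control pools, 20.5, 25.8 and 13.6 in DEX pools, 14.2, 6.63 and 15 in 1 wk pools, and 21.6, 7.12 and 6.95 in 4 wk pools. Controls were the highest group, and both recovery groups lay below every control pool. Its log2 fold change against control was -1.39 ± 0.431 at 1 wk (unadjusted p = 0.00539, limma adjusted p = 1) and -1.52 ± 0.431 at 4 wk (unadjusted p = 0.00287, limma adjusted p = 0.527). Csf2rb, another receptor gene of the granulocyte-macrophage system and not a member, was far lower. It was at 0.315 to 1.09 in controls, 0.0818 to 0.248 under DEX, 0.667 to 0.855 at 1 wk and 0.657 to 2.17 at 4 wk. The cell source of the Csf2ra reads was not tested. Flt3, a receptor of dendritic cell progenitors, had at most 8 reads in a library and 0 in all DEX pools.

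Fc receptors and the partners of the adaptor DAP12 were led by Tyrobp, which encodes that adaptor. Tyrobp had 1.10, 0.825 and 3.15 normalised counts in control pools, 1.08, 1.14 and 1.01 in DEX pools, 2.85, 5.23 and 4.00 in 1 wk pools, and 1.39, 4.71 and 6.23 in 4 wk pools. Both recovery groups lay above all DEX pools, and the log2 fold change at 1 wk against DEX was 1.77 ± 0.615 (limma adjusted p = 0.26). Fcgr3, a low-affinity receptor for immunoglobulin G, ran from 0.393 to 1.52 in controls, 0.166 to 0.327 under DEX, 1.14 to 3.19 at 1 wk and 1.62 to 3.50 at 4 wk. Fcgr3 is named because its adjusted p was the smallest of the members in 4 wk against DEX, 0.0598 by limma, at a log2 fold change of 2.81 ± 0.654. Fcgr3 has close relatives in its gene family, and its counts are uncertain where reads fit more than 1 of them. Fcer1g, the shared signalling chain of Fc receptors, ran from 0.0828 to 1.12 under DEX, below every recovery pool, and from 0.589 to 2.07 in controls. Fcgr1, the high-affinity receptor, and Trem2, a lipid sensor of macrophages, did not exceed 1.17 in any pool.

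Integrin and adhesion genes were sparse. Adgre1, the F4/80 antigen used to identify mouse macrophages, had 0.315, 0.707 and 1.85 normalised counts in control pools, 0.166, 0.327 and 0.673 in DEX pools, 1.05, 2.93 and 0.445 in 1 wk pools, and 0.370, 3.39 and 1.35 in 4 wk pools. The groups overlapped in each comparison, and its log2 fold changes against DEX were 1.48 ± 0.864 at 1 wk and 1.59 ± 0.864 at 4 wk. Itgam, the integrin chain CD11b, stayed at or below 0.547 throughout, at most 5 reads. Itgax, the chain CD11c of dendritic cells and some macrophages, was at 0.0787 to 0.118 in controls and 0.462 to 2.26 at 4 wk, with no overlap between these groups and a log2 fold change of 2.32 ± 0.783 (unadjusted p = 0.00955, limma adjusted p = 0.652).

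Among scavenger and pattern receptors, Cd68, a lysosomal glycoprotein of phagocytes, separated the DEX pools from all other groups. It had 2.60, 2.24 and 3.04 normalised counts in control pools, 1.49, 1.31 and 1.23 in DEX pools, 5.32, 6.25 and 2.56 in 1 wk pools, and 3.23, 3.94 and 4.96 in 4 wk pools. Every DEX pool was below every pool of the other groups, and every 4 wk pool was above every control pool. The log2 fold change was -0.91 ± 0.45 for DEX against control (limma adjusted p = 0.751), 1.65 ± 0.45 for 1 wk against DEX (limma adjusted p = 0.125) and 1.5 ± 0.45 for 4 wk against DEX (limma adjusted p = 0.16). Cd14, a coreceptor for bacterial lipopolysaccharide, also had DEX pools (0.414 to 0.785) below all others, but barely, since control pool 1 was at 0.787. Cd163, the haemoglobin scavenger receptor, and Mrc1, the mannose receptor, are both genes that glucocorticoids raise in macrophages. Cd163 was at 0.112 to 0.331 under DEX and 0.217 to 1.73 in controls, and Mrc1 was at 0.248 to 0.654 under DEX and 0 to 0.544 in controls. They are 2 of a list of 13 such genes, with a median log2 fold change of 0.32 under DEX against control and 0 called by limma. In 1 wk against DEX limma called Zbtb16 and Fkbp5 of that list lower, where 0.327% of all genes were. The study had picked 2 genes of the list on these samples. Cd209a, a lectin of monocyte-derived dendritic cells, had 0 reads in all DEX and all 1 wk pools, 0, 0.825 and 0.109 normalised counts in controls, and 1.57, 1.75 and 0.271 at 4 wk. Against a floor of 3 reads in each DEX library, which stands for 0.276 on average, its 4 wk mean of 1.2 was at least 4.33-fold higher. This bound rests on 4 wk pools 1 and 2, since pool 3, at 0.271, did not exceed the floor. Outside the 4 wk pools only control pools 2 and 3 were above 0.1. Cd209a therefore passed the filter of 0.1 in at least 3 libraries only through the 4 wk pools. Its tests and counts for the 4 wk group are not independent of that filter.

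Cx3cr1, the fractalkine receptor of resident macrophages and microglia, had a different order of the groups. It had 4.09, 2.59 and 3.04 normalised counts in control pools, 1.16, 2.13 and 1.68 in DEX pools, 5.80, 3.31 and 11.6 in 1 wk pools, and 2.59, 3.61 and 2.89 in 4 wk pools. The 1 wk pools were the highest group by mean, with 6.89 ± 4.23 (SD, n = 3) against 3.03 ± 0.527 at 4 wk, and the DEX pools were below all others. Its log2 fold change was 1.85 ± 0.488 for 1 wk against DEX (limma adjusted p = 0.11) and -0.99 ± 0.488 for 4 wk against 1 wk (limma adjusted p = 0.942). Exons of Cx3cr1 overlap those of Gm33858 on the other strand, and although the authors counted reads as reverse stranded, this kind of amplified cDNA library is not known to mark strand, so reads of the pair may not be told apart. The same holds for Csf1r with Hmgxb3, Cd52 with Crybg2 and Coro1a with Bola2, while Itgam overlaps Gm49368 on its own strand. Ccr2, the receptor that brings monocytes into tissue, was at 0.0951 to 0.222 at 1 wk and 0.462 to 0.876 at 4 wk.

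Genes of the lysosome and of microbial killing had log2 fold changes from -0.49 to 0.46 under DEX against control, and from 0.97 to 1.51 at the recovery times against control. Lyz2, lysozyme, had 10.7, 6.95 and 12 normalised counts in control pools, 9.03, 12.9 and 14.9 in DEX pools, 13, 20.4 and 25.9 in 1 wk pools, and 17.6, 31.0 and 31.6 in 4 wk pools. All recovery pools were above all control pools, and all 4 wk pools were also above the DEX pools. The log2 fold change against control was 0.98 ± 0.348 at 1 wk (limma adjusted p = 1) and 1.42 ± 0.348 at 4 wk (unadjusted p = 0.000948, limma adjusted p = 0.469), and 0.32 ± 0.348 under DEX. Its near-identical copy Lyz1 was at 0 in 11 libraries and at 0.112 in DEX pool 3. Ctss, the cysteine protease that trims the MHC class II invariant chain, ran from 4.24 to 4.88 in controls, 2.80 to 4.33 under DEX, 6.56 to 13.6 at 1 wk and 6.10 to 17.7 at 4 wk, so that both recovery groups were above all controls. Ctss is named after its values were seen. Cybb, the catalytic subunit of the phagocyte oxidase, and Mpeg1, a pore-forming protein, also had all recovery pools above all controls.

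Genes of all leukocytes were led by Laptm5, a lysosomal membrane protein of blood cells. Laptm5 had 3.62, 4.01 and 4.24 normalised counts in control pools, 2.57, 2.78 and 3.03 in DEX pools, 4.37, 12.9 and 4.34 in 1 wk pools, and 2.40, 13.8 and 11.1 in 4 wk pools. DEX pools were below and 1 wk pools above all control pools, whereas 4 wk pool 1 was the lowest library of all. Ptprc (CD45), Cd53, Cd52 and Coro1a, an actin regulator of leukocytes, had log2 fold changes between -1.01 and -0.24 for DEX against control and between 1.00 and 2.09 for 4 wk against DEX. Spi1 had 0.236, 0 and 2.50 normalised counts in controls, 0.248, 0 and 0.224 under DEX, 0.760, 1.4 and 0.334 at 1 wk, and 0.277, 1.09 and 1.62 at 4 wk. Controls held both the highest value of the series and a value of 0. Lst1, a leukocyte-specific transcript, had 0.472, 0.118 and 2.72 in controls, 1.16, 1.31 and 1.79 under DEX, 0.855, 0.637 and 1.78 at 1 wk, and 0.739, 1.2 and 0.902 at 4 wk. Lst1 had the highest log2 fold change of the members under DEX, 1.09 ± 0.785, with overlapping groups. Aif1 (IBA1), Ly86 and Ms4a7 stayed below 3 normalised counts in every pool, and DEX pools of Ms4a7, a membrane protein of macrophages, held 1 read in all.

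**Figure D2:**
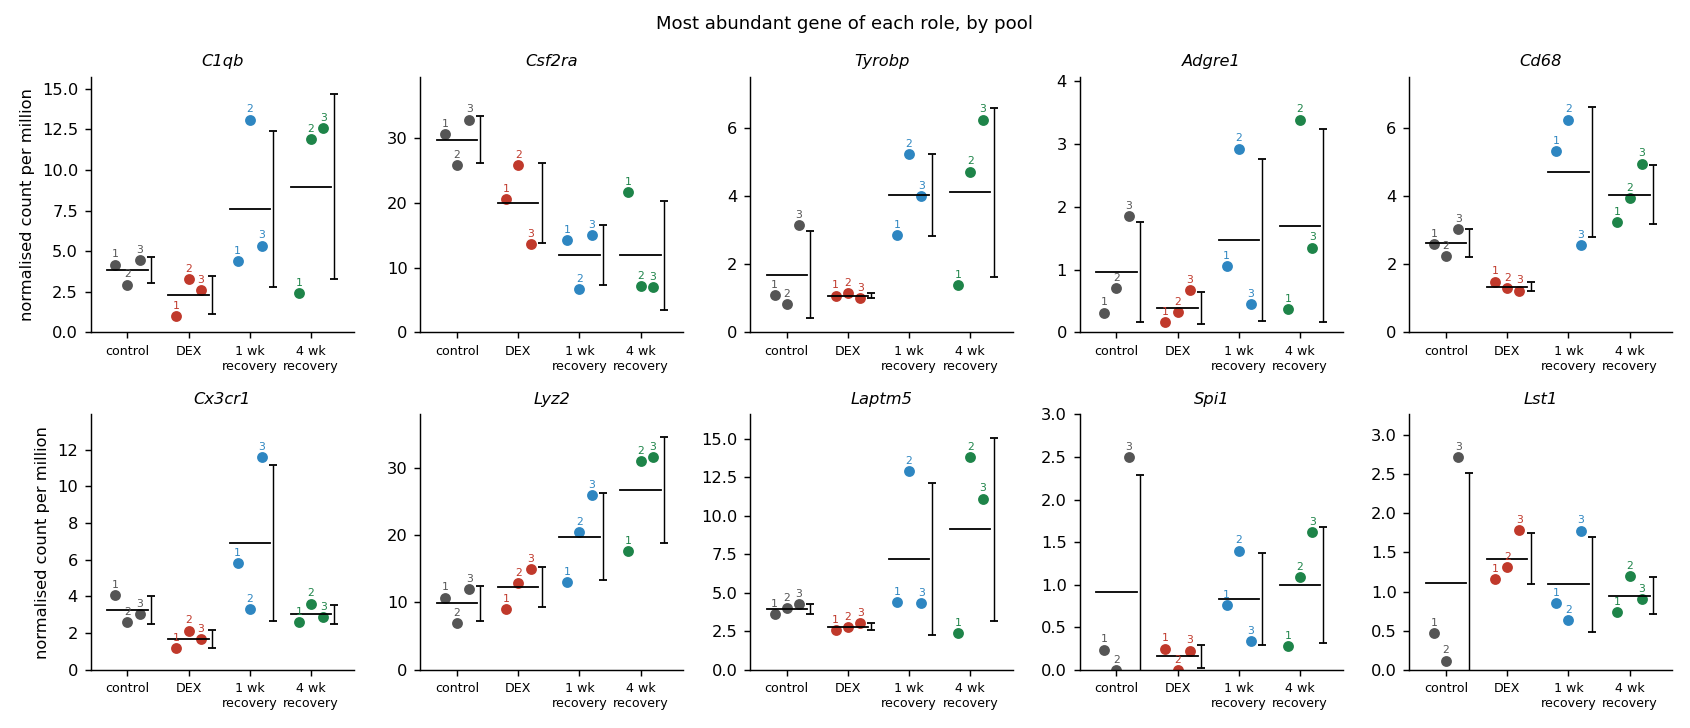
Normalised count (CPM) of the most abundant gene of each role in each pool, with the pool number beside each point, a line at the group mean and a bar of ± 1 SD (n = 3) that is cut off at 0. Cd68 shows DEX pools below all others, Lyz2 shows recovery pools above all controls, and Csf2ra has its highest group mean in controls.

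Under DEX, most members were lower than in controls, but none passed the test. Log2 fold changes were below 0 for 29 of the 35 genes, with a median of -0.76 against -0.022 over all 24736 genes tested, and with Flt3 and Cd209a set at the bound from a floor of 3 reads the median was -0.61. With a pseudocount of 1 in place of 0.1 it was -0.31. All DEX pools were below all control pools for 8 genes (Fcgr3, Laptm5, C1qa, Coro1a, Cx3cr1, Cd68, Cd14 and Ms4a7), or 22.9% of the 35 where 6.23% of all genes were, and above them for 0 genes, where 6.61% of all genes were. For Ms4a7, DEX pool 2 and control pool 2 held 1 read each and were kept apart by library scaling alone. For Cd14, DEX pool 3 was at 0.785 and control pool 1 at 0.787. The limma test called 0 of 35 at an adjusted p under 0.05, where 0.109% of all genes were called higher and 0.0121% lower, and 0 had an unadjusted p under 0.05, where 3.6% of all genes were higher and 3.2% lower. The smallest adjusted p was 0.736, for Flt3. The edgeR quasi-likelihood test, the edgeR likelihood ratio test, DESeq2 and limma with array weights each called 0 members, where they called 0.182%, 1.09%, 0.825% and 0.671% of all genes. The lowest of the 4 group means was that of the DEX pools for 26 of the 35 genes, and for 31.2% of all genes tested.

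At 1 wk of recovery, members were on the whole above the control level. The median log2 fold change was 0.74, against 0.002 over all genes, with 28 of 35 above 0. Pools did not overlap for 11 genes: 10 were higher (28.6%, against 3.47% of all genes), namely Mrc1, Cybb, Ctss, Cd53, Laptm5, Itgax, Lyz2, Cd14, Ms4a7 and Mpeg1, and Csf2ra was lower, where 2.61% of all genes were. For Itgax, pool 2 of 1 wk recovery and each control pool held 1 read, so that library scaling alone kept them apart. An unadjusted p under 0.05 was reached by 5 higher genes (Mrc1, Ctss, Tyrobp, Lyz2 and Mpeg1; 1.81% of all genes were higher) and by Csf2ra, where 1.98% of all genes were lower. The limma test called 0 of 35 and 0% of all genes, and the edgeR quasi-likelihood test, the edgeR likelihood ratio test, DESeq2 and array weights each called 0 members, where they called 0.00809%, 0.202%, 0.0526% and 0.0162% of all genes.

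At 4 wk of recovery, pools 2 and 3 held the highest summed levels of the series, while pool 1 lay below every 1 wk pool and inside the control range. The highest group mean was that of the 4 wk pools for 25 of the 35 genes, and for 22.8% of all genes tested. Against control, the median log2 fold change was 0.90, against 0 over all genes, and 30 of 35 were above 0. Pools did not overlap for 9 higher genes (25.7%, against 6.77% of all genes), namely Ptprc, Fcgr3, Cybb, Ctss, Itgax, Lyz2, Cd68, Cd14 and Mpeg1, and for Csf2ra, which was lower (6.42% of all genes were). An unadjusted p under 0.05 was reached by 8 higher genes, where 3.43% of all genes were, and by Csf2ra, where 2.92% of all genes were lower. The limma test called 0 of 35 and 0% of all genes, with a smallest adjusted p of 0.469 for Lyz2. Lyz2 was called by DESeq2 (0.239% of all genes), Lyz2 and Csf2ra by array weights (0.752%), and 0 members by the edgeR likelihood ratio (0.38%) and quasi-likelihood (0%) tests. Pool 1 weighed on this comparison: without it the median was 1.61 and 23 higher genes did not overlap, against 13.8% of all genes in that setting.

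The contrast of recovery with the end of DEX treatment gave the highest medians. Both comparisons share the DEX pools, as those above share the control pools, so they are not independent of each other. At 1 wk, 30 of 35 log2 fold changes were above 0, with a median of 1.38 against 0.029 over all genes, which was 0.72 with a pseudocount of 1. Pools did not overlap for 20 higher and 0 lower genes (57.1%, against 6.97% of all genes higher and 6.87% lower), and 15 had an unadjusted p under 0.05 and were higher (42.9%, against 5.19% of all genes), while 0 were lower, where 5.59% of all genes were. At 4 wk, 33 of 35 were above 0, with a median of 1.60 against 0.002 over all genes, which was 0.86 with a pseudocount of 1. Pools did not overlap for 18 higher and 0 lower genes (51.4%, against 9.8% of all genes higher and 9.67% lower), and 18 had an unadjusted p under 0.05 and were higher (51.4%, against 5.32% of all genes), while 0 were lower, where 4.62% of all genes were. Without pool 1 of 4 wk recovery, 31 higher genes did not overlap, against 16.2% of all genes.

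Whether any of these members passed the adjusted threshold depended on the test. In 1 wk against DEX, limma called 0 members, where 0.105% of all genes were called higher and 0.327% lower, while DESeq2 called 5 (C1qc, Cd68, Ctss, Cx3cr1 and Fcgr3; 2.32% of all genes), the edgeR likelihood ratio test 5 (2.88%), array weights 4 (2.29%) and the edgeR quasi-likelihood test 0 (0.586%). In 4 wk against DEX, limma called 0 members, where 0.412% of all genes were called higher and 0.461% lower, while DESeq2 called 8 (C1qa, C1qb, C1qc, Cd14, Cd68, Ctss, Fcgr3 and Ms4a7) where it called 2.68% of all genes. For the same comparison, the edgeR likelihood ratio test called 8 of the members (2.72% of all genes), array weights 16 (5.26%) and the edgeR quasi-likelihood test only Ctss (0.865%). All of these calls were higher after withdrawal except Csf2ra, which array weights called lower. In the F test over the 4 groups, limma called 0 members and 0.315% of all genes. The smallest adjusted p was 0.144 for Cd209a, which had passed the filter only through the 4 wk pools. An unadjusted p under 0.05 was reached by 16 members, where 9.21% of all genes did. DESeq2 called 8 members in that test (2.97% of all genes), the edgeR likelihood ratio test 9 (4.23%), array weights 11 (4.32%) and the edgeR quasi-likelihood test 0 (0.667%).

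Between 4 wk and 1 wk of recovery the members had no common direction. The median log2 fold change was 0.12, against -0.023 over all genes, with 23 of 35 above 0. It was 0.73 without pool 1 of 4 wk recovery, 0.49 without pool 2 of 1 wk recovery and -0.25 without pool 2 of 4 wk recovery. Ptprc, Cd209a and Ccr2 were higher at 4 wk with no overlap (8.57%, against 5.19% of all genes), and 0 members were lower, where 3.72% of all genes were. Cd209a and Ccr2 had an unadjusted p under 0.05 in that direction, where 3.7% of all genes did, and Cd163 in the other, where 1.77% did, so these counts were near the background. The limma test called 0 members and 0% of all genes. The edgeR likelihood ratio test called Cd209a (0.655% of all genes), and the edgeR quasi-likelihood test, DESeq2 and array weights called 0 members. Since Cd209a had passed the filter only through the 4 wk pools, its call and its lack of overlap here are not independent of the filter.

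**Figure D3:**
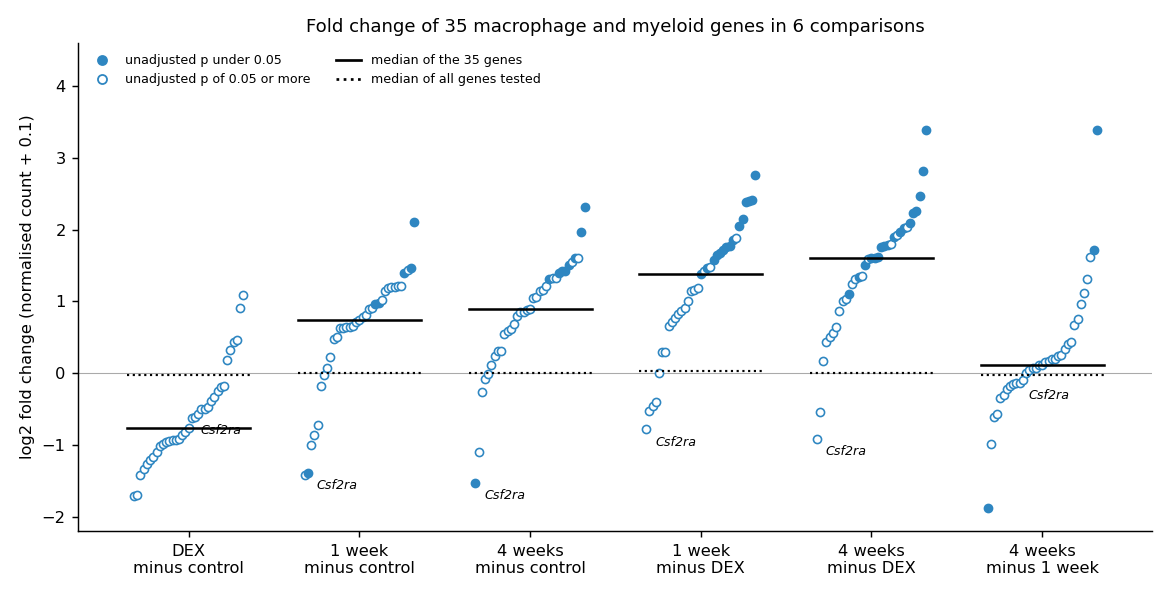
Log2 fold changes, on the log2(normalised count + 0.1) scale, of the 35 genes tested in 6 comparisons, in ascending order within each comparison; filled points have an unadjusted limma p under 0.05, the solid line is their median and the dotted line the median of all genes tested. The medians are -0.76 under DEX against control and 1.38 and 1.60 for recovery against DEX, and Csf2ra, named in each comparison, lies below the median in 5 of them.

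The levels of members relative to each other differed between pools in ways that library scaling cannot set, since ratios of genes within a library do not depend on it. These ratios were chosen after the values were seen and are given without a test. Reads of Csf1r, their shared denominator, may not be told apart from those of Hmgxb3 on the other strand. The sum of the C1q genes over Csf1r was 0.691, 0.825 and 1.53 in control pools, 0.292, 0.463 and 0.468 in DEX pools, 1.15, 1.17 and 1.49 in 1 wk pools, and 0.718, 1.31 and 1.5 in 4 wk pools. The DEX pools had less C1q for their Csf1r than any other pool. Lyz2 over Csf1r was 0.737 to 1.38 in controls, 0.965 to 1.2 under DEX, 0.838 to 2.77 at 1 wk and 1.44 to 1.85 at 4 wk. Csf2ra over Csf1r was 2.74 to 3.77 in controls, 1.09 to 2.32 under DEX, 0.272 to 1.61 at 1 wk and 0.330 to 2.27 at 4 wk, with all controls above all other pools.

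**Figure D4:**
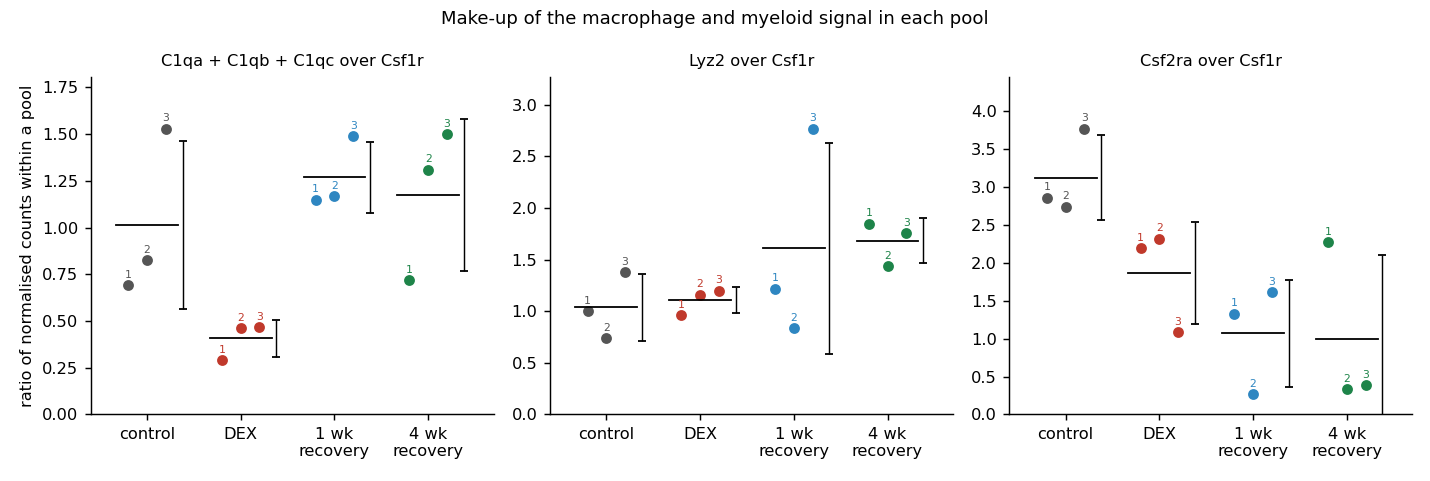
Ratios of normalised counts within a pool for the C1q genes, Lyz2 and Csf2ra over Csf1r, with the pool number beside each point, a line at the group mean and a bar of ± 1 SD (n = 3) that is cut off at 0. The C1q ratio of the DEX pools (0.292 to 0.468) is below all other pools, and the Csf2ra ratio of the control pools (2.74 to 3.77) is above all others.

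Pools of the same group differed from each other. In 4 wk recovery, pool 1 was below both other pools for 29 of the 36 members, whereas 33.2% of all tested genes had their lowest value there, and Csf2ra was highest in it. Pool 2 of 4 wk recovery held the highest value of the 12 libraries for 15 members and pool 3 for 9. In controls, pool 3 was above both others for 21 members, where 40.2% of all tested genes were. In 1 wk recovery, pool 2 was above both others for 19 members, where 31.3% of all tested genes were. As a share of reads on genes, which the library size correction does not touch, the members took 0.0103%, 0.011% and 0.0119% in 1 wk pools 1 to 3, so pool 2 did not stand out there.

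MHC class II genes, which macrophages, dendritic cells and B cells use to present antigen, had the same order of DEX, control and 4 wk recovery means as the members, and limma called some of them. Their summed level over 10 genes was 63.7 to 194 normalised counts in controls, 15.9 to 34.0 under DEX, 124 to 215 at 1 wk and 139 to 361 at 4 wk. Cd74, the invariant chain, had 29.6, 42.8 and 104 normalised counts in control pools, 3.48, 10.4 and 4.71 in DEX pools, 59.4, 89.5 and 69.2 in 1 wk pools, and 70.4, 141 and 155 in 4 wk pools. Cd74 was lower under DEX than in controls by limma, with a log2 fold change of -3.17 ± 0.458 (adjusted p = 0.0145), and higher at 4 wk than under DEX by 4.35 ± 0.458 (adjusted p = 0.00046). The limma test called 1 of the 10 genes lower under DEX, 4 higher at 1 wk against DEX and 5 higher at 4 wk against DEX. The study had picked 5 of these genes on the same samples, so their direction is not independent evidence. Whether the MHC class II genes differ from the members in their response was not tested.

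**Figure D5:**
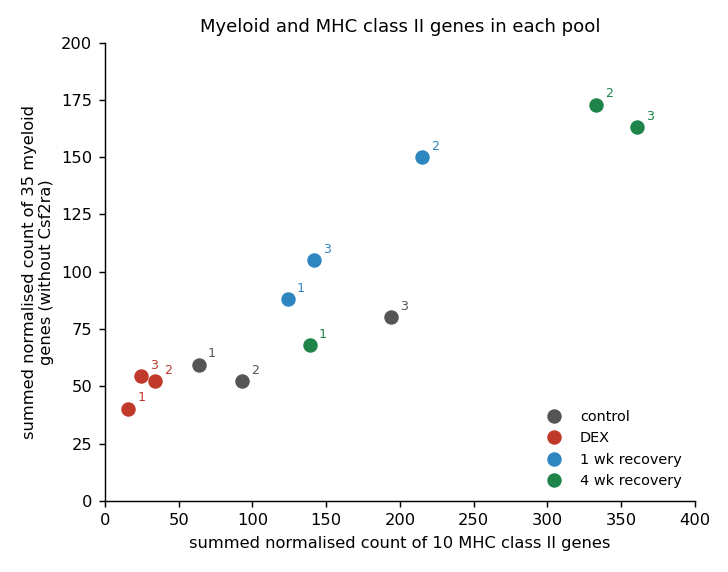
Summed normalised count of 35 members without Csf2ra (vertical axis) against that of 10 MHC class II genes (horizontal axis) in the 12 pools, with the pool number beside each point. DEX pools lie at the lower left, at 15.9 to 34.0 on the horizontal axis, and 4 wk recovery pools 2 and 3 at the upper right, at 333 and 361.

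Other genes of the myeloid pathways were read from lists without the members, with the backgrounds given above for each comparison. Among 14 ligands, receptors and related genes of the Csf1r and granulocyte-macrophage systems, limma called 1 in 4 wk recovery against DEX, the cytokine gene Tgfb1, higher by 2.88 ± 0.612 on the log2 scale (adjusted p = 0.0401). Of 12 dendritic cell genes, 3 of them members, it called Bst2, an interferon-induced membrane protein, higher by 1.94 ± 0.373 (adjusted p = 0.0254). Of 11 genes of leukocyte integrins and cytoskeleton it called 2 in the same comparison, Lcp1 (1.64 ± 0.354, adjusted p = 0.0427) and Nckap1l (2.36 ± 0.317, adjusted p = 0.00288), and the study had picked 2 genes of that list on these samples. Nckap1l, part of the complex that drives actin branching in blood cells, had 8.42, 8.48 and 12.9 normalised counts in control pools, 3.89, 5.31 and 4.49 in DEX pools, 9.22, 12.6 and 6.67 in 1 wk pools, and 24.4, 23.1 and 23.6 in 4 wk pools. Pool 1 of 4 wk recovery, which was low for most members, had the highest Nckap1l value of the 12 libraries.

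In 7 further myeloid lists, limma called 0 of 72 genes tested in the F test and in each comparison, while 21 had an unadjusted p under 0.05 in the F test. These lists cover resident macrophages, monocytes, neutrophils, myeloid transcription factors, DAP12 and Fc receptor signalling, phagocyte oxidase and lysosome genes, and scavenger and lectin receptors. In the F test the edgeR likelihood ratio test called 8 of these genes, DESeq2 3, array weights 9 and the edgeR quasi-likelihood test 0. In 4 wk recovery against DEX, 16 were higher and 2 lower at an unadjusted p under 0.05. Under DEX against control, 3 were higher and 2 lower. In that comparison Lyve1 and Stab1 were called by the edgeR likelihood ratio test and array weights, and Lyve1 also by DESeq2. Both had higher values under DEX. Lyve1 was at 0 in all control pools and at 0.828, 1.31 and 1.01 in DEX pools, and Stab1 at 4.72, 4.83 and 17.0 against 26.3, 20.4 and 42.1. The neutrophil markers Ly6g and Retnlg were at 0 in all 12 libraries. Of 7 microglia genes, limma called 1, Olfml3, higher under DEX than in controls by 3.03 on the log2 scale (adjusted p = 0.0152), a gene that the study had also picked on these samples.

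Markers of other cell types were present, and some of them differed between the groups. Summed endothelial markers were at 11.2 to 82.7 normalised counts in controls, 7.04 to 14.1 under DEX, 34.8 to 213 at 1 wk and 97.4 to 187 at 4 wk, and limma called 6 of the 10 higher at 4 wk than under DEX. Summed markers of fibroblasts and pericytes were at 98 to 155 in controls, 77.5 to 119 under DEX, 87.7 to 230 at 1 wk and 182 to 295 at 4 wk, with 2 of 9 called in that comparison. The study had picked 3 of the endothelial and 2 of the fibroblast markers on these samples. Summed markers of stem and folliculostellate cells were instead higher under DEX than in controls, at 496 to 504 against 210 to 483. They were at 275 to 454 at 1 wk and 560 to 702 at 4 wk, and limma called 0 of these 8 genes. Summed markers of the other pituitary hormone cells ran from 114000 to 309000 in controls, 117000 to 176000 under DEX, 140000 to 337000 at 1 wk and 245000 to 393000 at 4 wk, and genes of dissociation stress from 10900 to 20000 over all libraries. The part of these cells in the level of the myeloid genes was not tested.

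Among 34 genes of T and NK cells, B and plasma cells, mast cells and red blood cells, 21 were tested and limma called 0 in the F test, with 4 at an unadjusted p under 0.05. The edgeR quasi-likelihood test called 1 of them in the F test, the edgeR likelihood ratio test 7, array weights 5 and DESeq2 0. The mast cell genes Ms4a2, Fcer1a and Mcpt4 were at 0 in all libraries. Pool 1 of 1 wk recovery stood apart with 89.3 normalised counts of Igha, the heavy chain of immunoglobulin A, and 17.0 of Jchain, its joining chain, where no other library exceeded 0.435. The members in that pool were not above those of the other 1 wk pools, since it held the highest 1 wk value for 5 of them.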

How the data were processed

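RNA from sorted GFP-positive cells was amplified with SMART-V4 and Nextera XT. Per the labels and methods, the authors trimmed reads with Trim Galore 0.6.5, aligned them to GRCm38 with STAR 2.7.1a, counted them as reverse stranded with featureCounts 2.0.0 and scaled them with edgeR. The deposited table holds this normalised signal, CPM on a composition-corrected library size; all of its 271881 values above 0 were whole reads to within 6.29e-09 of a read. The planned test assumed plain CPM and was kept.

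Values were tested as log2(value + 0.1) with limma 3.58.1 (R 4.3.3, lmFit and eBayes with a trend) over all 12 libraries, without covariates, on 24736 genes above 0.1 in at least 3 libraries, with Benjamini-Hochberg adjustment and a threshold of 0.05; fold changes on this scale understate those of low genes. Recovered reads were also tested with edgeR 4.0.16 and DESeq2 1.42.0. Other pseudocounts, filters, scaling, array weights, a replicate block, the compared groups alone and each library left out were alternatives. No pair of libraries was identical. Same-numbered pools correlated from -0.294 to 0.397 in their deviations, and 8 of 12 libraries correlated best on average with their own number. The labels do not state a pairing by number, and the main test used none. Scripts were tested on simulated data.

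The 36 genes, the other lists and the tests were chosen with earlier results of these data known. Pool values are given for called members and the most abundant member of each role; further genes were named after their values were seen. Promoter sequences came from RefSeq, and gene positions from the GRCm38 annotation.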

Additional observations from a re-analysis of the deposited data

How the results depend on the processing

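Depth limits these genes, since 20 of the 36 had 3 or fewer reads in at least 1 library and 3 pools a group leave wide errors. No direction of a member list reversed except where stated. The limma count of 0 members became, in the F test, 11 with array weights, 9 with the edgeR likelihood ratio test and 8 with DESeq2. For 4 wk against control it became 2 with array weights and 1 with DESeq2. For 1 wk against DEX it became 4 with array weights, 5 with the likelihood ratio test, 5 with DESeq2 and 1 (C1qc) with the replicate block, which called 139 of all genes. For 4 wk against DEX it became 16, 8, 8 and 1 (C1qc; 241 of all genes) in that order, 1 with the edgeR quasi-likelihood test, and 0 to 2 with 1 library left out (Cd209a without control pool 2, where 160 of all genes were called; Fcgr3 without control pool 3, 238; Ctss and Fcgr3 without 1 wk pool 2, 316, or pool 3, 402; Ctss without 4 wk pool 1, 50), against 216 of all genes with all libraries. For 4 wk against 1 wk it became 1 with the likelihood ratio test, namely Cd209a, which had passed the filter only through the 4 wk pools. The block rests on numbers that 8 of 12 libraries matched best, which is a hint from the data and not from the design. It changed no other call. The cause of these differences between tests was not tested.

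Median log2 fold changes shrank with the pseudocount, to -0.31 (DEX against control) and 0.72 (1 wk against DEX) at 1, and for 4 wk against DEX to 1.09 at 0.5 and 0.86 at 1. For 4 wk against 1 wk the median was 0.58 with array weights. With 1 library left out, the medians ranged from -0.85 to -0.53 for DEX against control, 0.58 to 0.93 for 1 wk against control, 0.61 to 1.61 for 4 wk against control, 1.11 to 1.45 for 1 wk against DEX, 1.24 to 2.09 for 4 wk against DEX and -0.25 to 0.73 for 4 wk against 1 wk; the highest values for 4 wk were those without its pool 1. The last median fell to -0.06 without 1 wk pool 3 and -0.02 without 4 wk pool 3. The mean summed level without Csf2ra was 64.0 in controls and 49.0 under DEX.

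Chosen after seeing the data, counts of members whose pools do not overlap were taken without 4 wk pool 1 or 1 wk pool 2. Without 4 wk pool 1 they were 23 higher (13.8% of all genes) and 1 lower (13.2%) against control, 31 higher (16.2%) and 1 lower (15%) against DEX, and 9 higher (9.07%) and 1 lower (7.24%) against 1 wk. Without 1 wk pool 2 they were 11 higher (8.07%) and 2 lower (5.61%) for 1 wk against control, 20 higher (13.9%) and 0 lower (12.4%) for 1 wk against DEX, and 5 higher (10.2%) and 2 lower (11.8%) for 4 wk against 1 wk. Medians without Csf2ra, also chosen after seeing the data, ran from -0.79 to 1.61.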
